A study of Oryctolagus cuniculus with 6 samples.

Results

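The mitochondrial ribosomal protein genes were described in rabbit (New Zealand strain) tracheal mucosa injured by a tube whose cuff was highly inflated. They were taken as every row of the deposited gene table whose symbol begins with MRPL or MRPS followed by a digit, which gave 55 of 29587 rows, 35 named for the large subunit and 20 for the small subunit. The rule used names alone and no measured value. All 55 passed the filter on low counts, together with 13669 other genes, so none was left out of the tests. MRPS18C had no row under that symbol and was not analysed here. The same held for other genes of the family, for example MRPL4, MRPL12, MRPS2 and MRPS16. The 55 are thus not the whole family, and sums over them leave out the missing genes.

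Mitochondria carry their own ribosomes, which translate a handful of messages from the mitochondrial genome into core subunits of the respiratory chain and of ATP synthase. The ribosomal RNAs come from the mitochondrial genome, but every protein of both subunits is encoded in the nucleus, made in the cytosol and imported. A part of these proteins has bacterial counterparts, and the others arose in the mitochondrial lineage. In airway mucosa, respiratory chain activity is a main source of ATP for ciliated cells.

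RNA selected for polyA tails was sequenced from 3 high cuff pressure libraries and 3 control libraries. All animals were 3 months old. In the high cuff pressure group a tube of 3.0 mm was placed 13 cm deep and its cuff was kept at 35 cmH2O for 2 h; no label says how the controls were treated or how many animals stand behind a library. No genetic change is named for either group, and since no label ties a library to an animal, a p-value here reflects library-to-library spread, which may be in part technical.

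The 6 libraries held 10501734 to 14415754 counts each, with counts of single mitochondrial ribosomal protein genes between 48 (MRPS24) and 2730 (MRPL17). By its cell type label the material is epithelial, though the protocol names mucosa; of 8 listed epithelial markers 6 had rows, and their summed level was 2304 to 4149 CPM (counts scaled to libraries of one common size, with TMM factors) in the high cuff pressure libraries and 1531 to 1626 in the controls. KRT5, a basal cell keratin (mean 1235 against 237 CPM), and KRT8, a keratin of simple epithelia (935 against 507 CPM), carried most of that difference, while EPCAM and CDH1, adhesion proteins of epithelial cells, had log2 fold changes of -0.34 and -0.11. Markers of fibroblasts and smooth muscle were also present in every library. High cuff pressure library 1 stood apart: it was alone at one end of the second principal component, and its summed smooth muscle markers reached 417 CPM against 3553 to 8015 in the other 5 libraries. Counts of calls without this library are given beside those with all 6.

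Most mitochondrial ribosomal protein genes had higher mean levels after high cuff pressure, but few passed the test. The log2 fold change (high cuff pressure minus control, from edgeR's quasi-likelihood test on TMM-normalised counts) was positive for 47 of 55 genes and negative for 8, with a median of 0.49 and a range from -0.40 to 1.85; the median over all 13724 genes tested was -0.01. At an adjusted p under 0.05 (edgeR, Benjamini-Hochberg over all genes tested), 2 of 55 rose, MRPL41 and MRPL58, where 3.67% of all genes rose. None of the 55 fell, where 1.62% of all genes fell. The share that rose, 3.64%, was thus close to that of the table as a whole. At an unadjusted p under 0.05, 21 genes were higher, beside 15.6% of all genes, and 0 were lower, beside 13.6%. With total counts or filtered FPKM these counts were 11 higher and 5 lower of the 55. Over all genes, 4867 of 13724 with total counts and 4922 of 13177 on filtered log2(FPKM + 1) were under that p in either direction.

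A count that needs no test, made on the TMM-scaled CPM, gave a wider set. In 22 of the 55 genes (40%) every high cuff pressure library lay above every control library, beside 18.6% of all genes tested. On that scale only MRPS30 had its groups separated in the other direction, 1 of 55 beside 18.7% of all genes. In the other 32 genes the groups overlapped. On the deposited FPKM more genes separated downward. MRPL50, for example, had 16.7, 17.9 and 20.7 FPKM in high cuff pressure libraries 1 to 3 against 32.7, 25.8 and 29.4 in control libraries 1 to 3. Some of the 22 overlapped there, for example MRPL10 at 32.9, 36.1 and 39.7 against 31.6, 33.1 and 37.1 FPKM. In the authors' deposited table, 9 of the 55 had a q-value under 0.05: MRPL41, MRPL58, MRPL55, MRPL24, MRPL11, MRPS11, MRPS12, MRPS25 and MRPS18A. The share of all genes under that q-value was not computed here, so this count cannot be set against the whole table.

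The scaling of the libraries set where 0 lay. TMM scaling, used above, left the median of all genes near 0, whereas scaling to total counts alone moved it to -0.40, with mitochondrial genome rows taking 27.8% to 30.5% of counts in the high cuff pressure libraries and 5.28% to 11.5% in the controls. Under total counts the median of the 55 genes was 0.09, with 34 positive, 1 gene called higher (MRPL41) and 0 called lower. On the deposited FPKM, which also divide by total counts, 29 of the 55 were positive. Relative to the median of all genes, the 55 genes stood 0.50 higher under both scalings. As a plain share of all counts they took 0.161%, 0.210% and 0.186% in high cuff pressure libraries 1 to 3, and 0.157%, 0.160% and 0.174% in control libraries 1 to 3, and these groups overlapped.

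**Figure D1:**
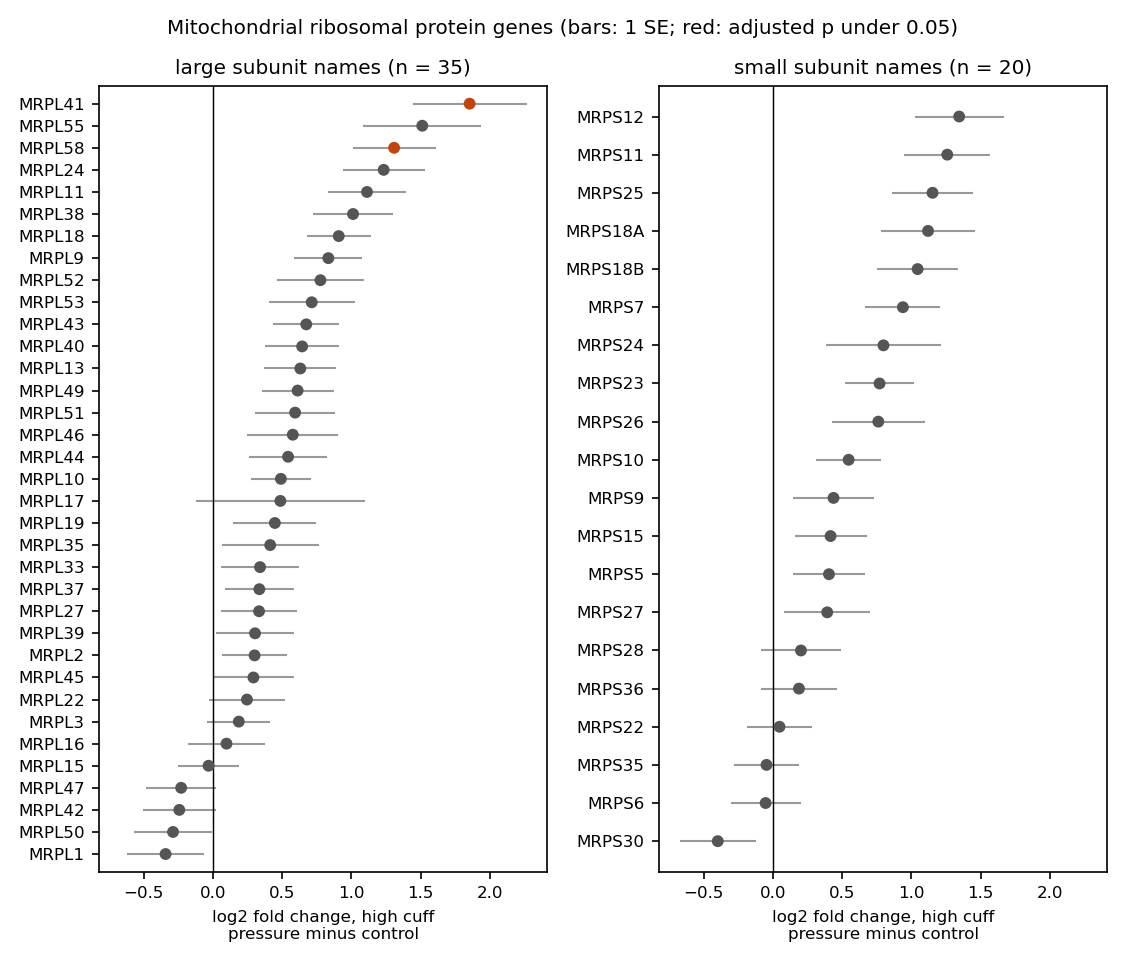
Log2 fold change of each of the 55 genes (x axis, high cuff pressure minus control), sorted within the 35 large subunit names and the 20 small subunit names; points are edgeR estimates and bars 1 standard error. Of the 55 points 47 lie above 0, and the 2 in red, MRPL41 and MRPL58, passed an adjusted p of 0.05.

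Among proteins of the large subunit, MRPL41, a protein without a bacterial counterpart that has also been described as a partner of BCL2, had the largest log2 fold change of the 55. Its levels were 33.3, 74.4 and 29.2 CPM in high cuff pressure libraries 1 to 3 and 16.2, 9.91 and 11.7 CPM in control libraries 1 to 3. The groups did not overlap, and high cuff pressure library 2 was far above the rest. The group means were 45.6 ± 24.96 CPM and 12.6 ± 3.26 CPM (SD, n = 3 each), and the log2 fold change was 1.85 ± 0.41 (SE), with an edgeR adjusted p of 0.0475. Its row covers 408 bp in a single block on unplaced scaffold GL018867, 491920 to 492327, in the coordinates of the deposited table (build not stated there).

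MRPL58, also called ICT1, is the peptidyl-tRNA hydrolase that frees stalled mitochondrial ribosomes and is itself a structural protein of the large subunit. It measured 55.0, 86.7 and 42.7 CPM in the high cuff pressure libraries and 27.0, 21.6 and 25.8 CPM in the controls. The control values were close together and all lay below the lowest high cuff pressure value. The log2 fold change was 1.31 ± 0.30 (SE), with an edgeR adjusted p of 0.0487. The row lies on scaffold GL018845, 665821 to 672235.

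Both calls lay close to the threshold and depended on the libraries used. Without high cuff pressure library 1 both were kept (adjusted p = 0.0251 for MRPL41 and 0.0327 for MRPL58, edgeR), and in all 19 of the 55 rose (34.5%), 12 large and 7 small subunit genes, beside 9.68% of all genes, and 0 fell, beside 8.97%. Without high cuff pressure library 3, MRPL58 was kept (0.0480) and MRPL41 was not (0.0532). Without high cuff pressure library 2, or without control library 1, 2 or 3, 0 of the 55 passed, with 15, 17, 15 and 14 higher and 0 lower at an unadjusted p under 0.05. Over all genes, 3081 of 14051, 3498 of 14020, 2691 of 13993 and 2496 of 13974 were under that p in either direction. The same omissions left few calls in the whole table. With all 6 libraries 725 genes were called in either direction, and these refits called 4, 76, 0 and 0 genes. Calls named below for other gene groups thus rest on the full set of libraries too. DESeq2, on all 6 libraries, called 15 of the 55 higher, 8 large and 7 small subunit genes, beside 10.6% of all genes, and 0 lower, beside 8.53%.

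Other large subunit genes had separated groups without passing the test. MRPL55, found in animals but not in bacteria, measured 25.1, 70.0 and 32.4 CPM against 19.8, 12.7 and 12.2, and its log2 fold change of 1.51 ± 0.42 (SE) had an adjusted p of 0.0723 (edgeR). MRPL24, a homologue of a bacterial protein near the exit of the peptide tunnel, measured 45.1, 90.7 and 82.0 CPM against 35.4, 28.1 and 29.2 (log2 fold change 1.23 ± 0.30). MRPL11, at the base of the stalk that binds translation factors, measured 31.7, 54.5 and 34.8 CPM against 20.7, 15.96 and 19.3 (1.11 ± 0.28). In these 3 genes high cuff pressure library 2 was the highest of the 6. MRPL18, a central protuberance protein, had 61.4, 90.5 and 61.4 CPM against 41.02, 36.9 and 35.7, and a log2 fold change of 0.91 ± 0.23. Reads of MRPL24 and MRPL18 cannot be fully told apart from those of rows that overlap them (RRNAD1 and HDGF, and TCP1), since no source used here gives the strand setting of the counting.

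At the other end of the large subunit, MRPL1 of the mobile L1 stalk measured 15.7, 21.7 and 15.5 CPM against 23.3, 17.2 and 26.3 (log2 fold change -0.34 ± 0.28). MRPL50 and MRPL42, both without bacterial counterparts, had log2 fold changes of -0.29 ± 0.28 and -0.24 ± 0.26. In CPM the groups overlapped in all 3 genes, while in FPKM all 3 were lower in every high cuff pressure library than in any control. MRPL47 and MRPL15 were the remaining large subunit genes with negative values, -0.23 and -0.03.

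Among small subunit genes 0 of 20 passed in edgeR, with 8 higher at an unadjusted p under 0.05 (15.6% of all genes), 7 called higher by DESeq2 (10.6% of all genes) and 7 by edgeR without high cuff pressure library 1 (9.68% of all genes). MRPS12, the counterpart of the bacterial protein at the decoding centre, measured 12.7, 22.6 and 13.9 CPM in the high cuff pressure libraries and 7.26, 6.31 and 5.76 in the controls (log2 fold change 1.34 ± 0.32, edgeR adjusted p = 0.0531). MRPS11, a protein of the small subunit platform, had 31.8, 58.1 and 31.0 CPM against 19.4, 16.02 and 15.1 (1.26 ± 0.31, adjusted p = 0.0568). MRPS25, specific to mitochondria, had 30.3, 60.5 and 49.5 CPM against 22.2, 19.5 and 21.4 (1.15 ± 0.29, adjusted p = 0.0587). In each of these 3 genes the groups did not overlap and the controls varied little. MRPS7, which contacts transfer RNA in the head of the subunit, and MRPS23, a mitochondria-specific protein, had log2 fold changes of 0.94 ± 0.27 and 0.77 ± 0.25, also with groups separated in CPM. In FPKM the groups of MRPS7 overlapped, with 33.5 in high cuff pressure library 1 against 34.2 in control library 1.

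Both tested paralogs of the bacterial S18 protein had log2 fold changes near 1. MRPS18A measured 39.0, 82.3 and 46.7 CPM against 28.7, 29.9 and 18.7 (log2 fold change 1.12 ± 0.34), and MRPS18B measured 30.6, 54.4 and 51.7 CPM against 26.7, 18.7 and 20.8 (1.04 ± 0.29). Neither passed the test, and both had groups separated in CPM. In FPKM the groups overlapped in both. High cuff pressure library 1 had 25.9 FPKM of MRPS18A against 26.9 in control library 2, and 23.3 FPKM of MRPS18B against 23.6 in control library 1. MRPS18A overlaps the row of RSPH9, a gene of ciliary radial spokes.

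On the TMM scale MRPS30 was the only gene of the 55 whose 3 high cuff pressure values, 9.46, 12 and 15.68 CPM, all lay below the controls, at 16.6, 16.7 and 15.74. High cuff pressure library 3 and control library 3 nearly met, and the log2 fold change of -0.40 ± 0.28 had an edgeR adjusted p of 0.359. Despite its name, MRPS30 sits in the large subunit of mammalian mitochondrial ribosomes. MRPS6 and MRPS35, a bacterial-type and a mitochondria-specific protein of the small subunit, had the next lowest values there, both -0.05.

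**Figure D2:**
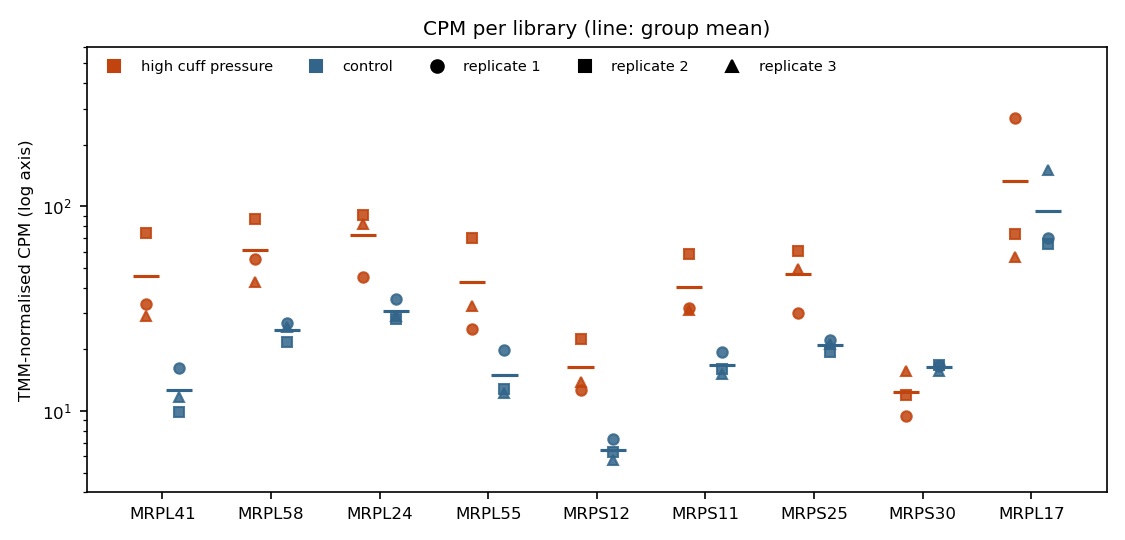
TMM-normalised CPM (log axis) of 9 genes in each of the 6 libraries; marker shape gives the replicate, colour the group, and the line the group mean. In MRPL41, MRPL58, MRPL24, MRPL55, MRPS12, MRPS11 and MRPS25 the colours separate with high cuff pressure library 2 at the top, MRPS30 has the order of the groups turned, and MRPL17 has 1 high library in each group.

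Levels between genes can be compared only per length, on the deposited FPKM scale, which divides fragments by gene length and library total. As means over the 6 libraries the highest levels in the large subunit were those of MRPL17, at 139 FPKM, and MRPL40, at 91.5 FPKM, with MRPL17 below MRPL40 in high cuff pressure libraries 2 and 3 and control library 1, and the lowest those of MRPL46 (1.95 FPKM) and MRPL1 (9.91 FPKM). In the small subunit MRPS11 and MRPS23 were highest, at 45.5 and 42.2 FPKM, in the reverse order within the controls (32.4 and 36.8 FPKM), and MRPS30 and MRPS27, a pentatricopeptide repeat protein, lowest, at 2.93 and 4.53 FPKM. The model length of MRPL46 is 4674 bp and that of MRPS30 5042 bp, the longest among the 55.

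MRPL17, the counterpart of a bacterial protein near the tunnel exit, varied in a way of its own. It measured 269, 73.6 and 56.4 CPM in the high cuff pressure libraries and 69.7, 65.2 and 150 CPM in the controls. High cuff pressure library 1 and control library 3 were high and the other 4 libraries close together, so the groups overlapped and the log2 fold change of 0.49 had a standard error of 0.61, the widest of the 55; without high cuff pressure library 1 it was -0.54. These 2 libraries were each at least 1.5 times above every other library in 50 of the 13724 genes tested (0.364%), and 1 of the 55, MRPL17, was among them. That pattern was looked for after its values were seen.

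The subunits had the same median. The median log2 fold change was 0.49 for the 35 large subunit genes and 0.49 for the 20 small subunit genes, with 30 of 35 and 17 of 20 positive. Groups were separated upward in 14 of 35 and 8 of 20 genes, 40% in each case beside 18.6% of all genes. Genes numbered within the bacterial range (up to 36 for the large and 21 for the small subunit) had a median of 0.45 over 27 genes, and those with higher numbers 0.58 over 28 genes. The higher numbers are mostly proteins specific to mitochondria, but MRPL47, MRPS24 and MRPS28 have bacterial counterparts (L29, S3 and S1).

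The ratio of summed large subunit counts to summed small subunit counts, on the log2 scale, was 1.18, 0.92 and 0.94 in the high cuff pressure libraries and 0.98, 0.88 and 1.20 in the controls. The groups overlapped and their means differed by -0.01, less than the spread within a group. The highest ratio of each group came from the library in which MRPL17 was high. Without MRPL17 the ratios were 0.83, 0.86 and 0.87 against 0.88, 0.77 and 0.97. With MRPS18A and MRPS30 counted in the large subunit, where mammalian ribosome structures place them, and MRPS36, now known as a component of the 2-oxoglutarate dehydrogenase complex, left out, the medians were 0.49 over 37 genes and 0.55 over 17 genes.

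**Figure D3:**
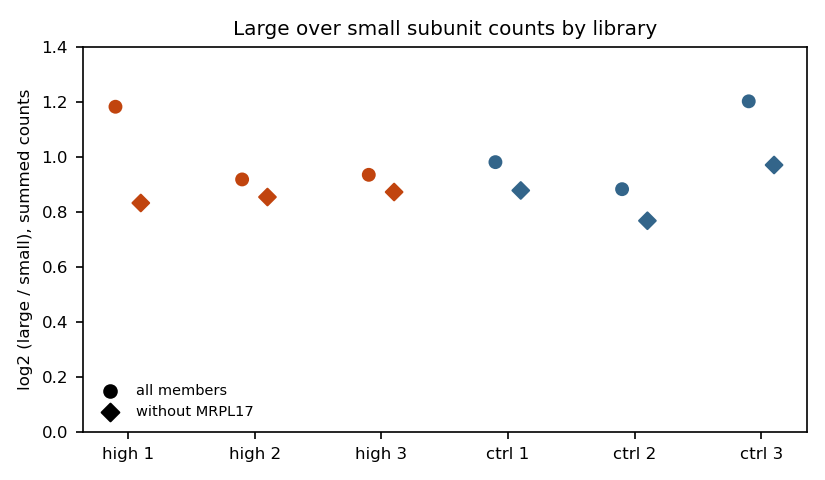
Log2 ratio of summed large to summed small subunit counts in each library, with all 55 genes (circles) and without MRPL17 (diamonds). The circles reach 1.18 in high cuff pressure library 1 and 1.20 in control library 3, whereas the diamonds of those libraries are at 0.83 and 0.97.

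The libraries differed within the groups in the same way across most of the 55 genes. High cuff pressure library 2 was the highest of the 6 libraries for 38 of 55 genes and lay above all controls for 46. Library 3 of that group lay above all controls for 44 genes, and library 1 for 24. The latter was the lowest of its group for 45 genes. The same counts were not made over all genes. The shortest genes of the whole table, described below, had the same order of libraries within the high cuff pressure group. As the median deviation of log2 CPM from each gene's own mean, the 55 genes stood at -0.07, 0.53 and 0.31 in high cuff pressure libraries 1 to 3 and at -0.14, -0.33 and -0.27 in control libraries 1 to 3. The first library was thus nearer to control library 1 than to the other libraries of its own group.

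Transcripts of the mitochondrial genome, which encode the proteins these ribosomes make, had another pattern over the same libraries. All 13 protein-coding rows had separated groups, with a median log2 fold change of 2.06, and 5 of 13 rose at an adjusted p under 0.05 (edgeR; 11 without high cuff pressure library 1, 9 with total counts, 0 with the replicate number as a block, and all 13 with DESeq2 or limma-voom): COX1 and COX3, subunits of cytochrome c oxidase, CYTB of complex III, and ND1 and ND3 of complex I. With high cuff pressure library 2 or 3, or any control library, left out, 0 of 13 were called (edgeR). Over all genes, 3.67% rose as reported, 9.68% without high cuff pressure library 1 and 10.6% with DESeq2. The median deviation of the 13 rows was 1.21, 1.27 and 1.06 in the high cuff pressure libraries and -0.32, -1.82 and -1.11 in the controls. Here high cuff pressure library 1 was as high as the other 2 of its group, while in the ribosomal protein genes it was near the controls. The median log2 fold change of the ribosomal protein genes minus that of the mitochondrial genome transcripts was -1.57.

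Other nuclear gene groups of translation and respiration were closer. The 47 tested nuclear subunits of oxidative phosphorylation had a median log2 fold change of 0.42, and 1 rose, ATP5G1 (a subunit of the ATP synthase rotor ring, log2 fold change 1.28, edgeR adjusted p = 0.0341), beside 3.67% of all genes. At an unadjusted p under 0.05, 8 were higher (15.6% of all genes). DESeq2 called 4 higher (10.6% of all genes) and edgeR without high cuff pressure library 1 called 7 higher (9.68% of all genes). Their deviations were -0.16, 0.59 and 0.17 in the high cuff pressure libraries and -0.03, -0.28 and -0.23 in the controls. The 41 tested cytosolic ribosomal proteins had a median of 0.59, with 0 called by edgeR at an adjusted p under 0.05. DESeq2 called 9 higher (10.6% of all genes), and edgeR without high cuff pressure library 1 called 8 of 42 higher (9.68% of all genes). At an unadjusted p under 0.05, 13 were higher (15.6% of all genes). Deviations of the cytosolic ribosomal proteins were -0.29, 0.77 and 0.37 against 0.06, -0.41 and -0.47. In both groups, as in the 55 genes, high cuff pressure library 2 was highest and library 3 next. In both, and in the 35 large subunit genes taken alone (-0.16 against -0.14), high cuff pressure library 1 lay below control library 1. Without high cuff pressure library 2 the medians were 0.20 and 0.36.

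**Figure D4:**
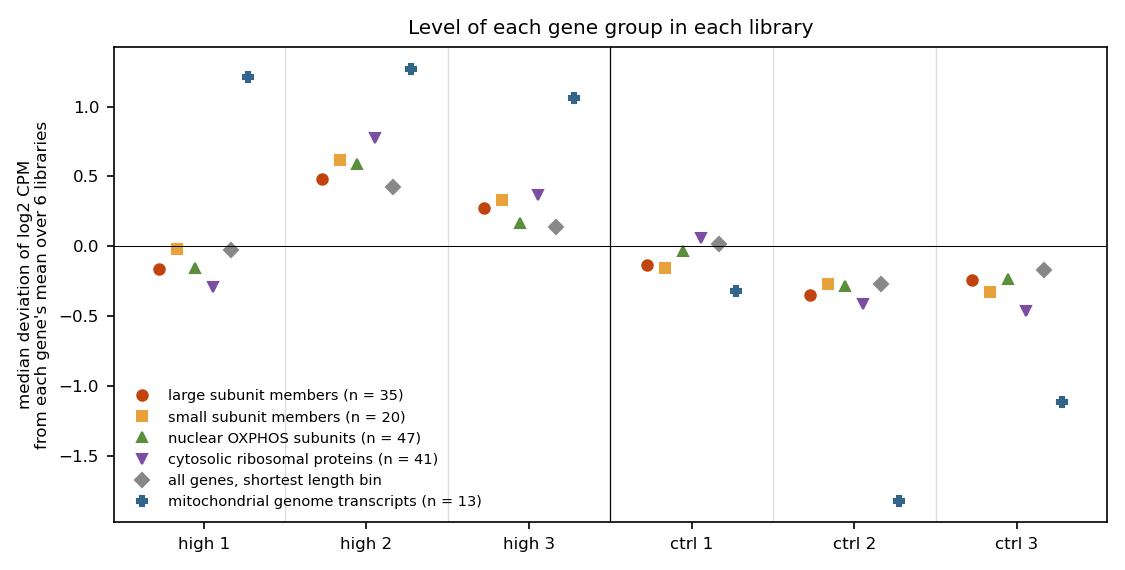
Median deviation of log2 CPM from each gene's mean over the 6 libraries (y axis) for 6 gene groups in each library. Mitochondrial genome transcripts sit above 1 in all 3 high cuff pressure libraries, whereas both subunits, nuclear oxidative phosphorylation subunits, cytosolic ribosomal proteins and the shortest genes are at or below 0 in high cuff pressure library 1 and highest in library 2.

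The 55 genes are short: the median model length was 1169 bp, against 2137 bp for all genes tested. Log2 fold changes of all genes were lower for longer genes over 10 bins of equal size, from a median of 0.31 in the shortest (up to 676 bp) to -0.18 in the longest. The 15 ribosomal protein genes in the shortest bin had a median of 0.80, and the 11 in the second bin 0.67 beside 0.15 for all genes there. Each gene set against the median of its own length bin, 47 of 55 were above it, with a median excess of 0.38. For nuclear oxidative phosphorylation subunits that excess was 0.22, for cytosolic ribosomal proteins 0.42 and for mitochondrial genome transcripts 1.91.

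All genes of the shortest bin, 1373 in number, had median deviations of -0.03, 0.43 and 0.14 in high cuff pressure libraries 1 to 3 and 0.02, -0.27 and -0.17 in control libraries 1 to 3. This was the same order of libraries within the high cuff pressure group as in the ribosomal protein genes, and the controls also had library 1 highest and library 2 lowest. A fit with a smooth length trend removed from each library left a median of 0.39 for the 55 genes and 0.02 for all genes, with MRPL41 and MRPL58 still called.

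Genomic span, the distance from start to end of a row with introns, was examined after these values were seen. The median span was 9440 bp for the 55 genes and 23320 bp for all genes. The 27 genes with spans up to 8682 bp all had positive log2 fold changes, as had 66.0% of all genes that short, with a median of 0.77 against 0.31, and 17 of them (63.0%) had groups separated upward, beside 26.7% of all genes that short. Of the 28 with longer spans 20 were positive (71.4%, beside 42.5% of all genes that long), with a median of 0.30 against -0.13, and 5 had groups separated upward (17.9%, beside 15.2%). Across the 55 genes Spearman's rho of log2 fold change was -0.58 with span and -0.38 with model length, and across all genes tested -0.33 and -0.17; genes of one set of libraries are not independent replicates. Against the median of their own span bin 49 of 55 genes were above, with a median excess of 0.37. With a span trend removed from each library, MRPL41 stayed called and MRPL58 did not (edgeR adjusted p = 0.0566).

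**Figure D5:**
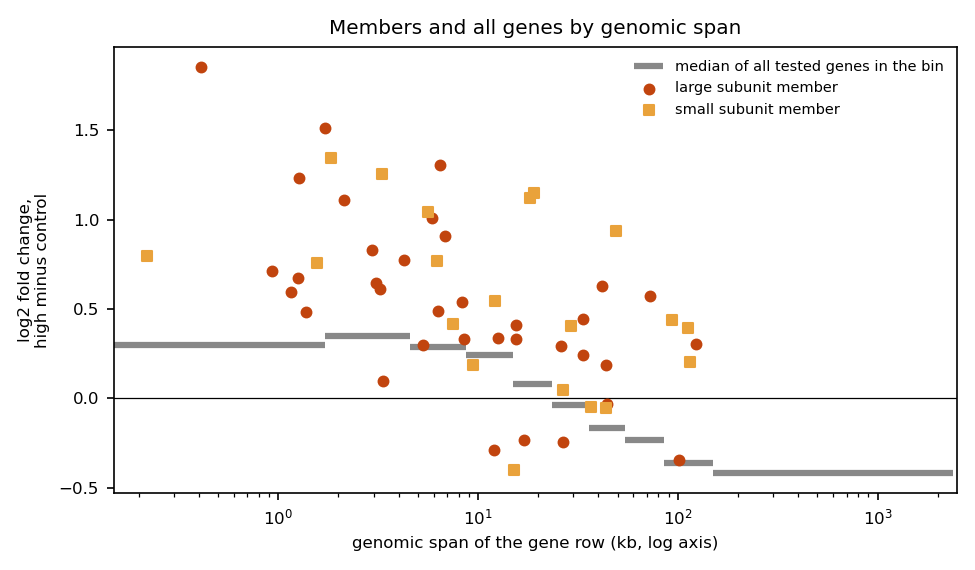
Log2 fold change (y axis) against genomic span (x axis, kb, log axis) for the large subunit (circles) and small subunit (squares) genes; grey bars are medians of all genes tested in 10 span bins. The grey bars run from 0.30 in the first bin to -0.42 in the last, and 49 of the 55 points lie above the bar of their bin.

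Genes that act with the mitochondrial ribosome were described from lists. Of 8 further proteins of the mitochondrial ribosome or its membrane anchor with other names, 6 had tested rows. All 6 log2 fold changes were positive, with a median of 0.73, and 0 passed an adjusted p of 0.05 (edgeR). At an unadjusted p under 0.05, 3 were higher (15.6% of all genes). DESeq2 called 2 higher (10.6% of all genes) and edgeR without high cuff pressure library 1 called 3 higher (9.68% of all genes). Without high cuff pressure library 2 the median was 0.45. AURKAIP1 of the small subunit measured 47.2, 102 and 32.4 CPM against 24.7, 14.03 and 16.3 (log2 fold change 1.72 ± 0.45), and GADD45GIP1 of the large subunit 15.97, 48.4 and 20.7 CPM against 10.6, 8.24 and 6.997 (1.72 ± 0.45). Both had separated groups with high cuff pressure library 2 highest. CHCHD1 of the small subunit had a log2 fold change of 0.97 ± 0.34, and NDUFAB1, the mitochondrial acyl carrier protein, 0.49 ± 0.26.

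Assembly factors had a median log2 fold change of 0.48 over 22 of 25 listed genes, with 18 positive and 0 called by edgeR. DESeq2 called 4 higher (10.6% of all genes). Without high cuff pressure library 1, edgeR called 6 higher and 1 lower, beside 9.68% and 8.97% of all genes. At an unadjusted p under 0.05, 8 were higher and 1 lower, beside 15.6% and 13.6% of all genes. YBEY, an endoribonuclease of ribosome maturation, had a log2 fold change of 1.43 ± 0.35 (edgeR adjusted p = 0.0566), and the GTPase MTG2, which acts on the large subunit, 1.03 ± 0.27. RCC1L, also a large subunit assembly factor, and the pseudouridine synthase homologue RPUSD3 had 1.04 ± 0.33 and 0.93 ± 0.32. All 4 had separated groups.

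The lists further from the ribosome were nearer to all genes. Translation factors (15 of 17 tested) had a median of 0.08 with 8 positive, mitochondrial aminoacyl-tRNA synthetases (14 of 17) 0.16 with 11 positive, genes for maintenance and expression of mitochondrial DNA (13 of 18) -0.07 with 5 positive, and regulators of nuclear genes for mitochondria (7 of 9) -0.18 with 3 positive. In each of these 4 lists 0 genes passed in edgeR; at an unadjusted p under 0.05, 4, 3, 1 and 1 were higher and 1, 1, 3 and 1 lower, and DESeq2 called 0, 2, 0 and 1 higher and 0, 1, 2 and 1 lower. Without high cuff pressure library 1, edgeR called 3, 2, 1 and 0 higher and 0, 0, 1 and 1 lower. Of all genes, 15.6% were higher and 13.6% lower at the unadjusted p. DESeq2 called 10.6% of all genes higher and 8.53% lower, and edgeR without that library 9.68% and 8.97%. With 1 library left out these medians ranged from -0.0016 (without high cuff pressure library 2) to 0.24 (without high cuff pressure library 1), from 0.015 (without high cuff pressure library 3) to 0.32 (without high cuff pressure library 1), from -0.22 (without control library 2) to 0.020 (without control library 3), and from -0.37 (without high cuff pressure library 3) to 0.041 (without high cuff pressure library 2).

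Single genes of these lists differed in direction. Among synthetases AARS2 and VARS2, for alanine and valine, had log2 fold changes of 0.98 ± 0.26 and 1.02 ± 0.29, WARS2, for tryptophan, 0.74 ± 0.27, and IARS2, for isoleucine, -0.78 ± 0.24. Among translation factors and partners COA3, which couples the synthesis of COX1 to its assembly, had 0.79 ± 0.26, SLIRP, which stabilises mitochondrial messages, 0.83 ± 0.30, the recycling factor MRRF 0.64 ± 0.24 and the elongation factor GUF1 -0.71 ± 0.26.

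TFAM, which packages mitochondrial DNA and starts its transcription, measured 6.11, 4.94 and 7.35 CPM in the high cuff pressure libraries against 10.8, 12.1 and 12.1 in the controls, a log2 fold change of -0.92 ± 0.29 (edgeR adjusted p = 0.0891). TRMT10C, of the complex that cuts mitochondrial transfer RNAs at the 5′ end, had 8.87, 7.06 and 7.27 CPM against 13.1, 15.1 and 18.9 (-1.02 ± 0.28, adjusted p = 0.0684), and its partner HSD17B10 had 0.83 ± 0.31. In TFAM and TRMT10C the groups did not overlap, though neither passed the test. MTERF1, a terminator of mitochondrial transcription, had -0.76 ± 0.33.

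Of the regulators, PPARGC1A, the coactivator known for driving mitochondrial biogenesis, measured 36.4, 15.9 and 10.5 CPM against 36.7, 65.2 and 59.5 (log2 fold change -1.36 ± 0.47, edgeR adjusted p = 0.107), with high cuff pressure library 1 next to control library 1. PPRC1, a related coactivator induced by growth signals, had 0.85 ± 0.27. GABPB1, a subunit of an activator of many genes for mitochondrial proteins, had -0.51 ± 0.24, and MYC 0.99 ± 0.49.

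Markers of several cell types moved with the groups beside these results, and in bulk tissue fewer cells of a type and less RNA per cell cannot be told apart. All 6 tested neutrophil markers rose (edgeR adjusted p under 0.05), with summed levels of 2509, 1340 and 638 CPM in high cuff pressure libraries 1 to 3 and 4.63 to 22.6 CPM in the controls. Of 7 markers each, 4 of monocytes and macrophages and 5 of the cell cycle rose, with summed levels of 197 to 218 against 60.9 to 125 CPM and 231 to 676 against 76.7 to 93.2 CPM. The macrophage complement genes C1QA, C1QB and C1QC did not pass, with log2 fold changes of -1.05, -0.93 and -0.80. Of 4 B and plasma cell markers 2 fell (107 to 221 against 477 to 1209 CPM), and of 6 fibroblast markers 2 fell (173 to 871 against 823 to 1231 CPM). None of 6 epithelial, 7 multiciliated cell (680 to 1822 against 2038 to 2861 CPM), 5 smooth muscle, 1 cartilage and 2 skeletal muscle markers tested passed (edgeR); at an unadjusted p under 0.05, 3 epithelial and 1 cartilage marker were higher and 2 multiciliated cell markers lower, and DESeq2 called the same numbers. Without high cuff pressure library 1, 3 epithelial and 7 cell cycle markers were called higher, and 2 multiciliated cell and 4 B and plasma cell markers lower (edgeR). Of all genes, edgeR called 3.67% higher and 1.62% lower with all libraries, and 9.68% and 8.97% without that library. At an unadjusted p under 0.05, 15.6% of all genes were higher and 13.6% lower, and DESeq2 called 10.6% and 8.53%. No marker with a row was at 0 in all libraries.

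Among the high cuff pressure libraries, summed neutrophil markers were highest in library 1 and cell cycle and epithelial markers in library 3, and the ribosomal protein genes were highest in library 2. Monocyte and macrophage markers were highest in library 2 as well: their median deviations, 0.38, 0.90 and 0.72 in high cuff pressure libraries 1 to 3 and -0.28, -0.99 and -0.83 in control libraries 1 to 3, had the same order over the 6 libraries as the 55 genes. As summed levels these markers had 197.8, 217.8 and 196.8 CPM in high cuff pressure libraries 1 to 3, so the shared order held for the deviations only. C1QA, C1QB and C1QC were each highest in control library 1. The part of cell composition in the levels of the 55 genes was not tested.

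Of the 55 rows, 16 overlap another row of the table. Without them the median log2 fold change of the remaining 39 genes was 0.49, with 33 positive and both MRPL41 and MRPL58 among them.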

How the data were processed

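PolyA RNA-seq libraries of tracheal mucosa were grouped by the library names in the labels. The authors deposited raw read counts per gene and, per the file headers, FPKM; HISAT2 2.0.4, StringTie 1.3.3b and edgeR are named in the submitters' processing notes. Model lengths were derived from counts and FPKM. The authors' deposited p-values and q-values were only quoted.

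Counts were tested with edgeR 4.0.16 in R 4.3.3 (filterByExpr, TMM, robust quasi-likelihood, Benjamini-Hochberg adjustment, threshold 0.05), high cuff pressure against control, and the script was tested on simulated data. Standard errors were derived from the log2 fold change and its F statistic; list levels use log2 CPM with a prior count of 2.

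The genes, lists and rules were chosen with earlier results of these data known. Named were genes past the threshold, per subunit the 6 smallest p, the 3 highest and 3 lowest log2 fold changes and the 2 highest and 2 lowest FPKM, the S18 paralogs and MRPL58, and up to 4 genes per list by call or p. MRPL47, MRPL15, MRPS24, the span comparison, the fits without both replicates 2 and the counts by structure, without MRPL17 or without overlapping rows were chosen after seeing values. Alternatives were RLE factors, total counts, other filters, DESeq2 1.42.0, limma-voom and limma-trend (limma 3.58.1) on log2(FPKM + 1) or log2(FPKM + 0.1), a replicate block, fits without mitochondrial genome rows, trends removed (lowess span 0.5), and leaving out libraries. Promoter and protein sequences were not used here.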

Additional observations from a re-analysis of the deposited data

How the results depend on the processing

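Of 20 summary results recomputed under the alternatives, 298 of 362 values were kept. A count was kept if it was equal to the reported one or within a fixed ratio of it. A median or difference was kept if it moved by less than the spread within a group, so one that changed sign could be kept. The difference between the subunits was kept throughout. The number of the 55 genes called higher was 2 as reported, 1 with RLE factors, total counts, limma-voom or the span trend removed, 3 without a filter (MRPL24 added), 2 with at least 1 CPM, without mitochondrial genome rows, with the length trend removed and on filtered FPKM (there MRPL41 and MRPS12), 0 on unfiltered log2(FPKM + 1), 15 with DESeq2, and 0 with the replicate block, alone or with the length trend removed, and without both replicates 2, whose length trends were opposite; it ranged from 0 to 19 over single libraries left out, and 0 were called lower in any. The counts over all genes were 503 higher and 222 lower as reported, 389 and 1241 with total counts, 1461 and 1170 with DESeq2, 198 and 46 with the replicate block, 234 and 49 with block and length trend, 0 and 0 without both replicates 2, and 0 to 1362 and 0 to 1261 with a library left out. Genes of the 6 lists around the ribosome that were called numbered 0 as reported, 5 with total counts, 13 with DESeq2, 1 with the length trend removed, and 0 to 18 with a library left out. Same-numbered libraries did not deviate together (r from -0.28 to -0.20, and 0 correlated best with its own number), so the block says nothing of a pairing.

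Values scaled to total counts fell with the median of all genes: 0.0946 for the 55 genes and for the large subunit and 0.0850 for the small, 0.33 for the proteins with other names, 0.0844 for assembly, -0.30 for translation factors, -0.24 for synthetases, -0.46 for mitochondrial DNA expression, -0.55 for regulators and 0.0257 for oxidative phosphorylation. On FPKM, also per total, the 55 genes and the large subunit had 0.0911 with a pseudocount of 1, filtered or not, and 0.0934 with 0.1, and the small subunit 0.0612 and 0.0661. With the span trend removed synthetases had 0.43 and regulators 0.12; without both replicates 2, mitochondrial DNA expression had -0.25 and regulators 0.0702; regulators ranged from -0.37 to 0.0406 over single libraries left out. Relative to all genes the 55 stood 0.23 to 0.53 higher over 15 alternatives and 0.41 to 0.69 higher over 6 omissions of a library.

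Of 414 values for 23 named genes, 10 changed sign: MRPL17 (-0.54 to 0.98 with a library left out, negative without high cuff pressure library 1), MRPS27 (-0.0134, total counts), MRPL1 (0.00825, span trend), MRPS35 (0.0710, span trend; -0.15 to 0.0688 with a library left out) and MRPS6 (0.0698 with the length trend removed, 0.0199 with block and length trend, 0.12 with the span trend; -0.22 to 0.16 with a library left out). These 414 values leave out the fits on FPKM, where 29 of the 55 genes were positive, against 47 as reported. Causes were not tested. With 3 libraries a group the spread between libraries, more than counts of 48 and above, limits the precision.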
